A study of Homo sapiens with 6 samples.

Results

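The regions described here are places on human autosomes where the deposited JUNB list had a binding region, the deposited FOSL2 list had none sharing a base with it, and the JUNB summit lay within 1000 bp of either end of a protein-coding gene. There were 2408 of them, out of 8515 JUNB-only regions and 39317 JUNB regions on the autosomes. They were chosen by overlap between the deposited peak calls of both factors and by summit position, so their number, strength and place are given as descriptions, with no test. The study mapped JUNB and FOSL2 by chromatin immunoprecipitation followed by sequencing in HaCaT, a spontaneously immortalised human keratinocyte line, using ChIPmentation, a protocol that adds sequencing adapters to the precipitated chromatin with a transposase. There were 3 libraries for JUNB and 3 for FOSL2, each factor with its own antibody, from HaCaT cells for which no modification or treatment is stated. Each factor had 1 list for its 3 libraries, so no value has a replicate error, the depth is unknown, and the intervals below cover counting error over regions or genes only. JUNB-only means that the FOSL2 list had no region there; FOSL2 signal below the threshold of that list was not tested.

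AP-1 is a dimer of leucine-zipper proteins, in which a JUN-family member such as JUNB pairs with a FOS-family member such as FOSL2 or with related ATF and CREB proteins. FOS and JUN dimers recognise the AP-1 site, and dimers with ATF or CREB proteins favour the related cAMP response element (CRE). In keratinocytes AP-1 is known for control of differentiation and stress genes, much of it from enhancers. Most promoters of widely expressed genes lie in CpG islands, carry sites for ETS, NRF1, SP and NF-Y factors rather than a TATA box, and some serve a pair of genes that are transcribed away from each other.

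Promoter DNA under some of the strongest regions is shown here because their motif content differed from region to region. All stretches come from RefSeq promoters of GRCh38.p14, read 5′ to 3′ on the strand of the named gene, and each lies upstream of the annotated start and outside any other annotated gene. The first 3 belong to some of the strongest regions whose promoter window held an AP-1 or CRE match, and capitals mark that match.
MDFI (chr6:41636966-41637017, plus strand): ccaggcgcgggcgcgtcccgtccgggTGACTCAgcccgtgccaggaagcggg
ANKRD40 (chr17:50707986-50708044, minus strand): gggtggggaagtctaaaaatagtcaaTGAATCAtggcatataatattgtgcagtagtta
SLC25A36 (chr3:140941693-140941752, plus strand): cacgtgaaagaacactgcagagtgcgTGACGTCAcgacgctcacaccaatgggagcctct
The next 4 come from strong regions that share a 9-letter stretch, GACGNTCCC, in which N is any base and which capitals mark. It was read off the strongest regions after their values were seen.
FZD1 (chr7:91264323-91264383, plus strand): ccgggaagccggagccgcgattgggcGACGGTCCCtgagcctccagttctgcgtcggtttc
ATG12 (chr5:115841593-115841653, minus strand): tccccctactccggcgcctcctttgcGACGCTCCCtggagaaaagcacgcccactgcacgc
SMARCD3 (chr7:151277156-151277216, minus strand): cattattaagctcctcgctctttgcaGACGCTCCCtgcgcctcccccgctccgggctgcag
ACAP3 (chr1:1308049-1308109, minus strand): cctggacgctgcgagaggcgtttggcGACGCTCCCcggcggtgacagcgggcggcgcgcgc
The last 5 come from 3 of the strongest regions with none of these matches in their window, POM121, EEF1A1 and E2F4, and from 2 divergent gene pairs, RAB2B with TOX4 and TRIP4 with PCLAF. They carry no capitals.
POM121 (chr7:72879210-72879269, plus strand): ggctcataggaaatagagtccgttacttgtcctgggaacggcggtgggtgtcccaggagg
EEF1A1 (chr6:73521221-73521280, minus strand): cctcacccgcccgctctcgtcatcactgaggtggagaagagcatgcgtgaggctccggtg
E2F4 (chr16:67192055-67192114, plus strand): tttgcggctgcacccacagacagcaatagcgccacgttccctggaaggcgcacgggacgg
RAB2B (chr14:21477064-21477123, minus strand): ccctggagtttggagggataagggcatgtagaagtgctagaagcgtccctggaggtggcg
TRIP4 (chr15:64387695-64387754, plus strand): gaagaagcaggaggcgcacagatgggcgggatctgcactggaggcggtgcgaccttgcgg

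JUNB-only regions lay at gene ends more often than the other classes of region. Of JUNB-only regions 28.3% were at an end (95% Wilson interval 27.3 to 29.2), against 8.56% of JUNB regions shared with FOSL2 (8.25 to 8.88; 2636 of 30802) and 5.60% of FOSL2-only regions (5.39 to 5.82; 2421 of 43232). Fold enrichment, the authors' ratio of signal over background at a region, had a median of 3.77 in JUNB-only regions at gene ends (interquartile range 3.09 to 4.46). The median was 3.30 in the 6107 JUNB-only regions far from gene ends (2.83 to 4.08) and 4.82 in the shared regions at gene ends (4.03 to 5.91). JUNB-only regions at gene ends had a median width of 511 bp, against 284 bp far from gene ends and 747 bp for shared regions at gene ends. Their median −log10 q, the peak caller's adjusted significance, was 8.98, against 5.93 far from gene ends and 17.0 in shared regions at gene ends. In all 3 measures the JUNB-only regions at gene ends therefore had medians between those of the other classes, with ranges that overlapped widely.

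**Figure D1:**
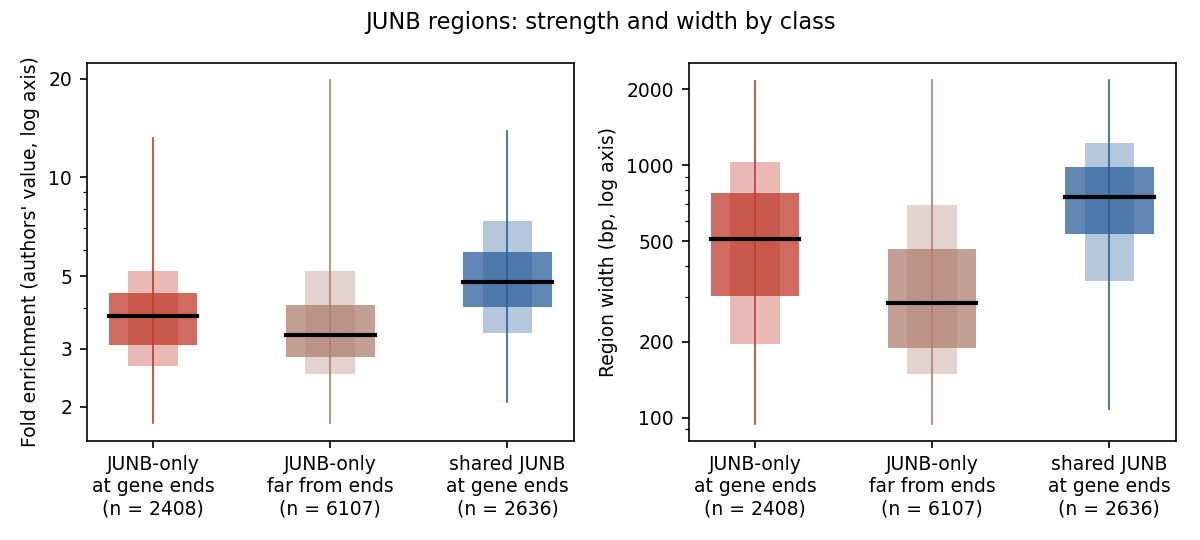
Fold enrichment (left, log axis) and width in bp (right, log axis) of 2408 JUNB-only regions at gene ends, 6107 JUNB-only regions far from them and 2636 shared JUNB regions at gene ends; black bars are medians, wide boxes the interquartile range, narrow boxes the 10th to 90th percentile and lines the whole range. The medians of JUNB-only regions at gene ends, 3.77 and 511 bp, lie between those of the other 2 classes.

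Among the JUNB-only regions at gene ends, fold enrichment ran from 1.78 to 13.2, and 980 regions (40.7%) reached 4, 313 reached 5 and 32 (1.33%) reached 8. Stronger regions were wider: across the 2408 regions the Spearman correlation of fold enrichment with width was 0.63, and with distance to the gene end it was −0.24. These values come from the same peak calls and share depth and base composition. The widest region, 2160 bp at the start of ATP6V1D, a subunit of the vacuolar proton pump, had a fold enrichment of 5.26. MMP15, a membrane-bound matrix metalloproteinase, followed with 1956 bp, and DLG1, a scaffold protein of cell polarity, with 1873 bp. The narrowest, at DNAJC30, MNS1 and PDE7A, spanned 95 bp each with fold enrichments of 2.26 to 2.47. Just inside the 1000 bp limit lay the regions at TPD52L2 (1000 bp), RFPL4A (998 bp) and DMPK (996 bp), with fold enrichments of 2.95, 5.13 and 3.91. Just outside lay those at ACP6 and LHX6 (1002 bp each) and CORO1A (1003 bp), with 2.92, 2.42 and 2.60.

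FOSL2 regions were often not far away. The gap to the nearest FOSL2 region had a median of 6851 bp, and it was under 1000 bp for 15.1% of JUNB-only regions at gene ends (363), against 11.3% of those far from gene ends. The region at GORASP2, a Golgi stacking protein, was 6 bp from a FOSL2 region, and those at DSCC1 and PLA2G4A were 8 and 26 bp away. On the other side of the rule, the shared JUNB regions of least overlap were at CLDN3, FBXO45 and EEF2KMT, with 7, 16 and 20 bp in common with FOSL2.

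Gene starts held nearly all of the regions. Strand was known for the nearest gene of 1980 regions, and 1829 of these (92.4%, 91.1 to 93.5) were nearer to its start than to its 3′ end. The share was 84.3% among shared JUNB regions at gene ends (82.7 to 85.7) and 77.4% among FOSL2-only ones (75.5 to 79.2). Regions at starts had a median fold enrichment of 3.85 and a median width of 548 bp, and the 151 regions at 3′ ends had 3.05 and 278 bp. Of those 151, at least 23 had another annotated start within 1000 bp. Starts of the genes without strand could not be counted. The strongest, with a fold enrichment of 8.63, lay nearest to the 3′ end of ICMT, a protein carboxyl methyltransferase, and also within 1000 bp of RNF207.

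Around the 1829 starts the JUNB-only summit lay a median of 44 bp upstream (interquartile range 138 bp upstream to 116 bp downstream), and 62.8% of summits were upstream. In shared regions the median was 59 bp upstream and 66.0% of summits were upstream. Of the JUNB-only summits 747 (40.8%) lay within 100 bp of the start and 1210 (66.2%) within 250 bp, while 333 (18.2%) were more than 500 bp away. The rule's cap of 1000 bp limits both classes.

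**Figure D2:**
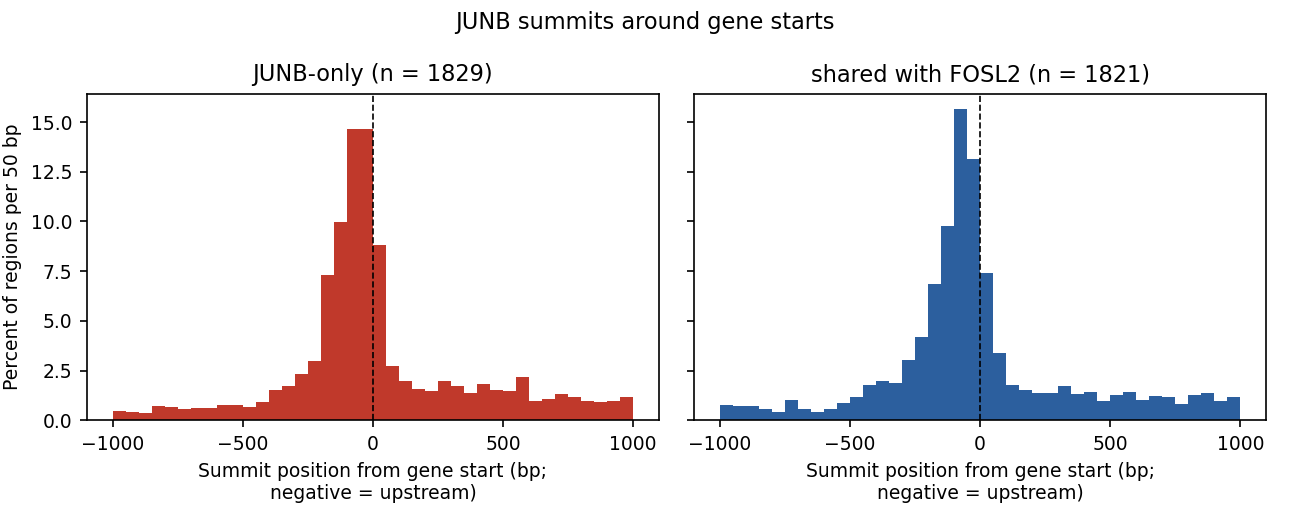
Position of JUNB summits relative to the annotated gene start in bp (horizontal axis, negative is upstream) for 1829 JUNB-only regions (left) and 1821 shared regions (right), as percent of regions per 50 bp (vertical axis). Both pile up just upstream of the start, with medians 44 and 59 bp upstream.

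The 20 strongest regions all lay at gene starts, on 13 chromosomes, with fold enrichments of 9.62 to 13.2 and −log10 q of 63.5 to 276. Of these, 15 had their summit upstream of the start, and 19 were more than 1000 bp from any FOSL2 region. The strongest was at POM121, which encodes a membrane anchor of the nuclear pore, on chr7:72879063-72879578 (hg38), with a fold enrichment of 13.2 and its summit 117 bp upstream. A near-identical gene, POM121C, also held one, at 7.85, and how reads were shared between the copies was not tested. EEF1A1, the elongation factor that brings aminoacyl-tRNA to the ribosome, had 12.6 on chr6:73520755-73521914, with a summit 218 bp upstream. FZD1, a Wnt receptor of the Frizzled family, also had 12.6, on chr7:91263821-91264982, and the highest −log10 q of all the JUNB-only regions at gene ends, 276, with its summit 3 bp inside the gene.

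Several of the other genes among the 20, grouped here by hand after their values were seen, encode regulators of transcription or signalling. JARID2, a cofactor of the Polycomb repressive complex PRC2, had a fold enrichment of 11.4, with the nearest FOSL2 region 76624 bp away. E2F4, a cell cycle factor that works with the retinoblastoma-family pocket proteins, had 10.8 and a −log10 q of 270. Its region, on chr16:67191329-67192702, was the only one of the 20 with a FOSL2 region under 1000 bp away, at 544 bp. SMAD1, the transducer of BMP signals, had 10.6 with a summit 980 bp inside the gene, near the limit of the rule. EBF1, a transcription factor of early B cells, had 10.2, SMARCD3, a subunit of SWI/SNF chromatin remodellers, 9.85, and PIAS3, a SUMO ligase that restrains STAT3, 9.72. CTDSP1, a phosphatase of the RNA polymerase II tail, had 9.65 in a region that also lies within 1000 bp of an end of SLC11A1.

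The remaining genes among the 20 have other roles. SNX15, a sorting nexin, had 11.0. SYNGR2, a vesicle membrane protein, had 9.62, UBR1, a ubiquitin ligase of the N-degron pathway, 9.71, and BZW1, a regulator of translation initiation, 9.75. RPL17, a protein of the large ribosomal subunit, had 10.2 and UTP6, a factor of ribosomal RNA processing, 9.79. CELF3, an RNA-binding protein, had 10.5, TMEM63C, a membrane protein, 10.6, and OGFOD2, beside ABCB9, 9.80.

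At the far end of significance both JUNB-only and shared regions at gene ends were well represented. Of the 17 autosomal JUNB regions with a −log10 q of at least 200, 6 (35.3%, 17.3 to 58.7) were JUNB-only at gene ends, against 6.12% of all 39317. The 6 were at FZD1, E2F4, BMF, EEF1A1, SNX15 and AMN1. BMF, a BCL2-family promoter of cell death named here after its value was seen, had a −log10 q of 253. Another 9 of the 17 were shared regions at gene ends, and 2 were shared regions elsewhere. A −log10 q of 200 was thus reached by 0.249% of JUNB-only and 0.341% of shared regions at gene ends. The share of JUNB regions that were JUNB-only at gene ends did not change steadily with the threshold. It was 3.94% of the 26267 regions that reached 10, 1.26% of the 16127 that reached 20, 0.996% of the 3013 that reached 60 (30 regions), and 5.42% of the 369 that reached 100 (20 regions; 3.54 to 8.22).

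An end of 2636 of 19126 autosomal protein-coding genes (13.8%) had a JUNB-only region within 1000 bp. The corresponding share was 15.3% for shared JUNB regions (2919 genes) and 13.5% for FOSL2-only regions (2584 genes), so the 3 classes reached similar numbers of genes. Of the 2636 genes, 211 (8.0%) also had a shared JUNB region at an end and 249 (9.45%) a FOSL2-only region. The rule that no base is shared with FOSL2 itself lowers these overlaps. There were 163 genes with 2 JUNB-only regions and 5 with 3, namely PTGR2, PRELID3B, SEC16A, SH3GLB2 and PABPC1L. A single gene was within reach of 2024 regions, 2 genes of 368, 3 of 15 and 4 of 1. The share of genes with a region ran from 7.01% on chromosome 4 (54 of 770) to 17.8% on chromosome 5 (161 of 904). Chromosome 19, the most gene-dense, had 12.3% of its 1451 genes reached, while 45.1% of its 366 JUNB-only regions lay at gene ends. A long noncoding RNA gene had an end within 1000 bp of 492 regions (20.4%, 18.9 to 22.1), against 455 shared regions (17.3%, 15.9 to 18.8).

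Genes with a JUNB-only region were described by 30 gene lists, read against the 13.8% of all genes. In 23 lists the share was above that value, in 11 the whole Wilson interval was above it, and in 2 the whole interval was below. Neighbouring genes can share a region, so genes within a list are not independent.

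Energy and protein production genes had shares above all genes, and shared JUNB regions had equal or higher shares in all of these lists but the respiratory chain. The respiratory chain had 23 of 83 genes (27.7%, 19.2 to 38.2), against 15.7% for shared JUNB regions, with complex I subunits NDUFA6 at a fold enrichment of 5.91, NDUFB3 at 5.76 and NDUFA2 at 5.15. Cytosolic ribosomal proteins had 18 of 81 (22.2%, 14.5 to 32.4), against 30.9% for shared regions, with RPL17 at 10.2, RPS20 at 6.51 and RPL22 at 5.74, and mitochondrial ribosomal proteins 15 of 77 (19.5%, 12.2 to 29.7, containing the value of all genes), with 15 of 77 for shared regions too, led by MRPS17 at 6.65, MRPL16 at 6.18 and MRPL33 at 4.77. Of the translation factors 15 of 66 (22.7%, 14.3 to 34.2) had a region, against 30.3% for shared regions, and besides EEF1A1 these included the initiation factors EIF3F at 6.37 and EIF1 at 5.37. The aminoacyl-tRNA synthetases, which charge tRNAs, had 10 of 38 (26.3%, 15.0 to 42.0), and 10 of 38 for shared and for FOSL2-only regions, with NARS2 at 5.40, AARS1 at 5.17 and MARS1 at 5.01.

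Genes of RNA synthesis and processing and of chromatin had shares from near the value of all genes to well above it. FOSL2-only regions stood at 14.8% in the transcription list, 23.3% in splicing factors, 13.5% in chromatin regulators and 21.7% in replication histones. Subunits of the RNA polymerases, Mediator and general transcription factors had 29 of 108 genes (26.9%, 19.4 to 35.9), against 27.8% for shared regions. The RNA polymerase III subunit POLR3GL had a fold enrichment of 6.93 at its 3′ end, and the Mediator subunits MED30 and MED23 had 6.31 and 5.76. Splicing factors had 19 of 73 (interval 17.3 to 37.1%), against 17.8% for shared JUNB regions, with the spliceosomal proteins SNRPG at 5.80 and SNRPC at 5.34 and the splicing regulator SRSF5 at 5.18. Chromatin regulators had 14 of 89 (15.7%, 9.61 to 24.7), close to all genes, against 23.6% for shared regions, with SMARCD3 at 9.85 and the remodeller CHD8 at 4.78. The histone methyltransferase KMT2D had 4.91 at a region 193 bp from its 3′ end and 9 bp upstream of the start of PRKAG1, and 4.60 at its own start. Replication histones had 15 of 69 (21.7%, 13.6 to 32.8, containing the value of all genes), against 20.3% for shared regions, led by H4C3 at 5.68, and the single region between H2AC11 and H2BC11, at 5.48, counted for both.

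Among genes of protein folding, transport, turnover and the cell cycle, the intervals of the first 3 lists lay above all genes and those of the last 3 contained that value. FOSL2-only regions stood at 19.8% in chaperones, 18.7% in vesicle transport and 15.3% in ubiquitin genes. They stood at 12.8% in proteasome subunits, 16.5% in replication and repair and 14.7% in cyclins and their kinases. Chaperones had 20 of 81 (24.7%, 16.6 to 35.1), and 20 of 81 for shared regions, led by the J-domain proteins DNAJC28 at 8.65, DNAJC3 at 5.30 and DNAJC24 at 5.08. The DNAJC24 region lay nearer to DCDC1, with its summit 37 bp upstream of the DCDC1 start. Vesicle transport genes had 45 of 187 (24.1%, 18.5 to 30.7), against 25.7% for shared regions, with SNX15 at 11.0, the small GTPase RAB2B at 6.73 and the SNARE protein SEC22B at 6.59. Ubiquitin conjugation and removal genes had 47 of 235 (interval 15.4 to 25.6%), against 18.7% for shared regions, with RNF207 at 8.63 near its 3′ end, UBE2L5 at 7.39 and FBXO16 at 6.83. Proteasome subunits had 8 of 47 (17.0%, 8.89 to 30.1), against 36.2% for shared JUNB regions, led by PSMD3 at 5.23, PSMC1 at 4.71 and PSME3 at 4.15. DNA replication and repair had 14 of 79 (17.7%, 10.9 to 27.6), and 14 of 79 for shared regions, with the checkpoint genes RAD9B at 5.63, RAD1 at 5.33 and RAD17 at 5.10. The RAD9B region had its summit inside the neighbouring gene VPS29. Cyclins and their kinases had 12 of 68 (17.6%, 10.4 to 28.4), against 22.1% for shared regions, with CCNT2 at 5.13, the phosphatase gene CDC25C at 4.63 and CCNH at 4.49.

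The immediate early list and the stress list had the highest shares of the 30, and higher ones still for shared regions. The immediate early and MAPK feedback genes had 15 of 38 with a JUNB-only region (39.5%, 25.6 to 55.3) and 19 with a shared one, but at a low median fold enrichment of 3.22. KLF2, a transcription factor of the Krüppel-like family, led with 5.14, followed by DUSP10, a phosphatase of stress-activated kinases, with 4.78, and EGR3 with 4.40. Heat shock, unfolded protein and antioxidant genes had 8 of 26 (30.8%, lower bound 16.5), against 46.2% for shared regions, led by KEAP1, the sensor that holds NRF2 down, at 7.41, then the endoplasmic reticulum chaperones CALR at 4.53 and, near its 3′ end, CANX at 4.42. Frizzled and LRP receptors had 3 of 12 (interval 8.89 to 53.2%), against 8.33% for shared regions, namely FZD1 at 12.6, FZD2 at 5.22 and FZD6 at 2.64.

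AP-1 and related leucine-zipper genes had 5 of 31 (16.1%, 7.09 to 32.6), against 35.5% for shared regions. The 5 were MAF at 4.86, CREB1 at 4.34, ATF2 at 4.02, ATF6 at 3.79 and NFE2L2, which encodes NRF2, at 3.00. CREB1 and ATF2 encode CRE-binding proteins, and ATF6 a sensor of the unfolded protein response.

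At keratinocyte genes, which mark the labelled cell type, both classes of JUNB region were found. The JUNB-only intervals of both lists below contained the value of all genes. FOSL2-only regions stood at 23.3% in the adhesion list and 13.9% in the differentiation list. Adhesion and basal layer genes had 7 of 30 (23.3%, 11.8 to 40.9) with a JUNB-only region, against 43.3% with a shared one. KRT5, the basal keratin, had regions 957 and 141 bp upstream of its start, at fold enrichments of 4.22 and 3.02, followed by the desmosomal genes DSG2 at 3.69 and PKP1 at 3.55. Differentiation and cornified envelope genes had 6 of 36 (16.7%, 7.87 to 31.9), against 33.3% with a shared one, led by KRT6A, a keratin of activated epidermis, at 6.25, OVOL1 at 5.18 and PRDM1 at 3.81.

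Olfactory receptors and keratin-associated proteins of hair were the 2 lists whose whole interval lay below all genes. The receptors had 1 of 391 (0.256%, 0.0452 to 1.43), OR52N2, against 0.767% for shared regions, and the keratin-associated proteins 2 of 94 (2.13%, 0.585 to 7.43), KRTAP4-9 and KRTAP5-5, against 4.26%. Zinc finger genes of chromosome 19 had 35 of 251 (13.9%, 10.2 to 18.8), close to all genes, against 11.6% for shared regions, led by ZNF121 at 6.22, ZNF823 at 5.80 and ZNF460 at 5.24, and HOX genes 4 of 39 (10.3%, 4.06 to 23.6), against 17.9% for shared regions. Markers of fibroblasts, T cells and hepatocytes had 0 of 15, 15 and 13, melanocyte markers 1 of 13, DCT at 4.39, and neuron markers 3 of 12, among them SNAP25 at 3.98 and MAP2 at 3.40 and 3.15. With lists of this size the intervals of all 5 marker lists reached above the value of all genes.

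**Figure D3:**
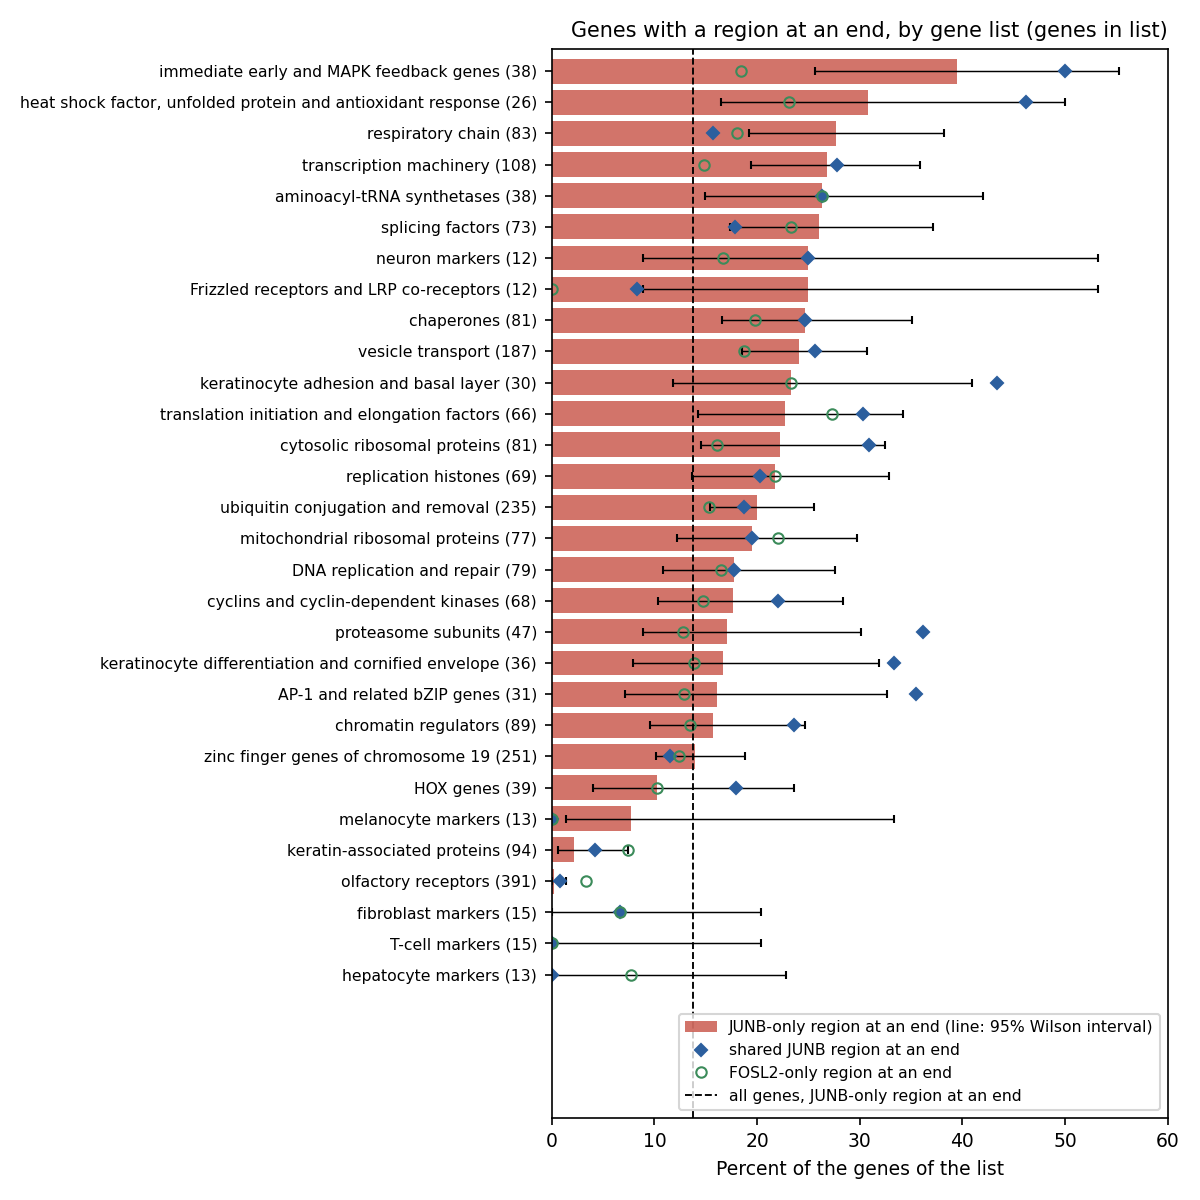
Percent of the genes of each of 30 lists (number of genes in brackets) with a JUNB-only region within 1000 bp of an end (bars, with 95% Wilson intervals as lines), with a shared JUNB region (diamonds) and with a FOSL2-only region (circles). The dashed line is the 13.8% of all genes with a JUNB-only region; 23 bars end to its right.

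Divergent gene pairs of known strand held a minor share. Among the 15101 genes with known strand, 789 pairs on opposite strands, 1557 genes in all, pointed away from each other with starts at most 1000 bp apart. The 4025 genes without strand could not be placed in a pair, so the counts and shares of pairs below are undercounts. A JUNB-only region lay within 1000 bp of both starts in 173 of the 1863 regions within 1000 bp of any start of known strand (9.29%, 8.05 to 10.7), at 163 pairs, and a shared region in 187 of 1858 (10.1%, 8.78 to 11.5). The 173 had a median fold enrichment of 4.10 and a median width of 660 bp. The 1690 at no pair of known strand had 3.82 and 537 bp, and some of these may have a partner gene without strand. Summits fell between the starts in 99 regions (57.2%), inside the gene on the plus strand in 31 and inside the gene on the minus strand in 43. Counted by gene, 337 of the 2000 genes with a JUNB-only region at the start (13.2% of 15101 genes with known strand) were in such a pair (16.9%, 15.3 to 18.6). The share was 18.3% of the 2070 genes with a shared region at the start (13.7% of 15101), 15.4% of genes with a FOSL2-only region and 10.3% of all 15101. A region between paired starts counts for both genes.

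The strongest pair was ATG12 with AP3S1, at a fold enrichment of 11.9. ATG12 encodes a ubiquitin-like protein of autophagy and AP3S1 a subunit of the AP-3 adaptor of endosomal transport, and their starts are 370 bp apart. RAB2B with TOX4 followed at 6.73 (starts 236 bp apart), then PCLAF, a partner of the replication clamp PCNA, with TRIP4, a transcriptional coactivator, at 6.56 (149 bp). C11orf98 with CSKMT, a citrate synthase methyltransferase, had 6.34 (96 bp), and IRS2, an adaptor of the insulin receptor, with LOC124903211 had 6.15 (501 bp). SIRT2, a protein deacetylase, with NFKBIB, an inhibitor of NF-kB, had 6.12, with starts 48 bp apart.

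Promoter sequence was read in windows from 250 bp before to 50 bp after the start, available for 15101 genes, of which 1942 had a JUNB-only region within 1000 bp and 1980 a shared one; 73 had both. Promoters with a JUNB-only region had a median GC content of 66.0%, against 64.0% with a shared region and 62.7% for all promoters. By a GC content above 55% and a ratio of observed to expected CpG above 0.6, 82.0% were CpG-rich (80.2 to 83.6), against 75.6% with a shared region (73.7 to 77.4), 73.3% with a FOSL2-only region and 59.6% of all promoters.

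The AP-1 site, TGANTCA, was found in 2.21% of promoters with a JUNB-only region (1.65 to 2.97; 43 promoters). It was found in 11.5% with a shared region (10.1 to 12.9), 7.76% with a FOSL2-only region (6.55 to 9.18) and 5.64% of all promoters (5.29 to 6.02). The CRE, TGACGTCA, was in 2.94% (2.27 to 3.78), against 6.62% with a shared region and 2.62% of all promoters. Its first 6 letters, TGACGT, were in 12.5% (11.1 to 14.1), against 17.1% with a shared region and 9.54% of all promoters, which includes every full CRE. Both strands were searched for each motif.

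Matches to the ETS, GC box, NRF1 and YY1 sites were more frequent than among all promoters, the CCAAT box was close to all promoters, and the TATA box was less frequent. The ETS site, CCGGAAG, was in 24.3% of promoters with a JUNB-only region (22.4 to 26.2), against 21.5% with a shared region and 14.3% of all promoters. The GC box bound by SP factors, GGGCGG, was in 74.7% (72.7 to 76.5), against 69.6% and 58.7%. The consensus site of NRF1 was in 13.7% (12.2 to 15.3), against 10.6% and 8.65%, and the YY1 site, AANATGGC, in 12.2% (10.8 to 13.7), against 11.7% and 7.93%. The CCAAT box of NF-Y was in 37.6% (35.5 to 39.8), against 40.6% and 36.1%, and the TATA box, TATAAA, in 5.30% (4.39 to 6.39), against 6.62% and 9.83%. GC content also differed between the classes, and its part in these shares was not tested.

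**Figure D4:**
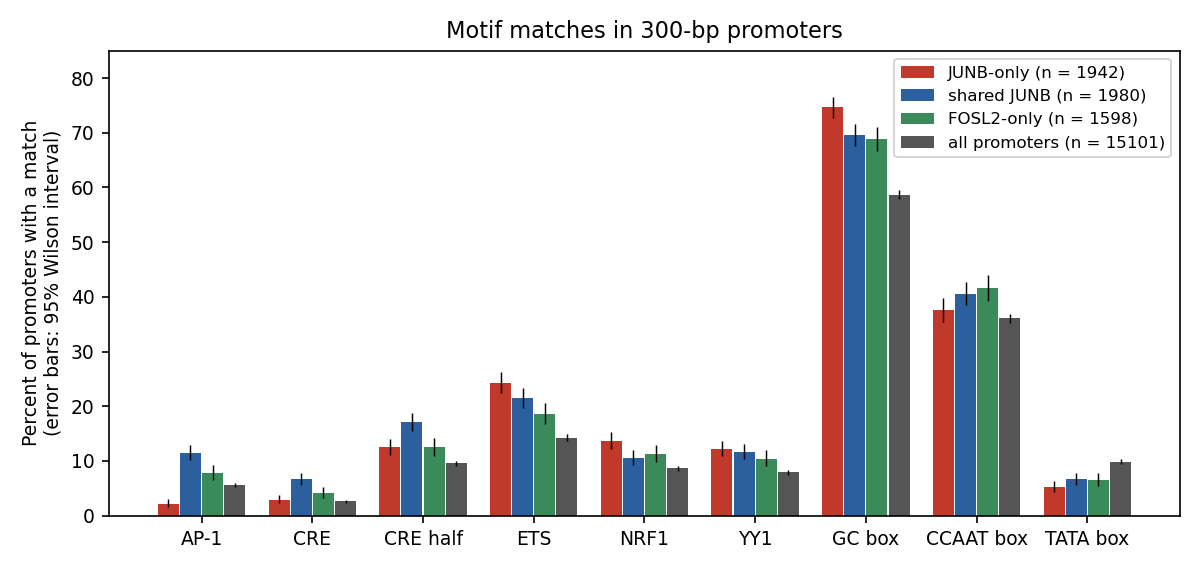
Percent of promoters with at least 1 match to each motif (vertical axis, error bars 95% Wilson intervals) for promoters with a JUNB-only region (1942), with a shared JUNB region (1980), with a FOSL2-only region (1598) and all 15101. AP-1 matches stand at 2.21% for JUNB-only, below the other 3 classes, and ETS matches at 24.3%, above them.

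Within the JUNB-only class, CRE and ETS matches were more frequent among the stronger regions, with CRE counted on few promoters. With region and promoter pairs cut into 5 equal classes from the weakest to the strongest fold enrichment, CRE matches stood at 0.980, 1.96, 2.21, 4.41 and 4.91% and ETS matches at 20.6, 20.6, 21.9, 31.9 and 27.8%. The CRE counts were 4, 8, 9, 18 and 20. Their interval was 0.382 to 2.49% in the weakest class and 3.20 to 7.47% in the strongest. For ETS these were 16.9 to 24.8% and 23.6 to 32.3%, which overlap. AP-1 matches stood at 1.23, 1.96, 1.97, 3.43 and 2.70%, all below the 5.64% of all promoters. The interval of the fourth class, 2.05 to 5.68%, contained that value. Median GC content ran the other way, at 68.3, 68.0, 67.0, 65.3 and 63.7%. Stronger regions also lay nearer to the gene end (Spearman correlation −0.24), and the part of distance in these shares was not tested.

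Where the summit itself lay inside the window of a listed start, the sequence under it could be read directly. This was so for 1160 JUNB-only regions at gene ends, of which 30 (2.59%, 1.82 to 3.67) had an AP-1 match and 45 (3.88%, 2.91 to 5.15) a CRE match in the window. Of 1100 shared regions at gene ends 198 (18.0%, 15.8 to 20.4) had an AP-1 match and 105 (9.55%, 7.95 to 11.4) a CRE match, and of all 21041 listed starts 6.09% and 2.30% did. The AP-1 match lay a median of 71.5 bp from the JUNB-only summit and 12 of 30 were within 50 bp, against 32 bp and 62.1% of 198 in shared regions. The CRE match lay a median of 50 bp away in JUNB-only regions, against 44 bp in shared ones. MDFI, with a fold enrichment of 9.05, ANKRD40, with 8.62, and SLC25A36, with 7.25, are among the strongest regions with such a match. Their stretches, which stand near the opening, were chosen among those upstream of the start and outside other annotated genes.

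The stretch GACGNTCCC was gathered among the most significant regions. It lay in the window of 9 of the 23 JUNB-only regions at gene ends with a −log10 q of at least 60 (39.1%, 22.2 to 59.2), of 2 of the 89 between 20 and 60, and of 11 of the 1048 under 20 (1.05%, 0.587 to 1.87). The shares in shared regions were 1 of 50, 3 of 340 and 9 of 710, and 0.898% of all listed starts hold it. AP-1 matches in the same order were in 1 of 23, 8 of 89 and 21 of 1048 JUNB-only regions, against 33 of 50 (66.0%, 52.2 to 77.6), 107 of 340 and 58 of 710 shared regions. Because the stretch was read off the strongest regions, its excess among them is a description and carries no weight as evidence.

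The 9 regions were at FZD1, ATG12, SNX15, SMARCD3, CTDSP1, AMN1, TSKU, ACAP3 and CCDC106, with fold enrichments of 6.86 to 12.6 and −log10 q of 159 to 276. The stretch lay 7 bp from the summit at TSKU, 19 bp at ACAP3, 22 bp at SNX15, 37 bp at AMN1, 40 bp at CTDSP1, 41 bp at ATG12, 74 bp at SMARCD3, 83 bp at FZD1 and 180 bp at CCDC106. Over all 22 regions with the stretch the median was 57.5 bp, and 11 lay within 50 bp. Of the 20 strongest regions by fold enrichment, 16 had their summit inside a listed window; 5 of these held the stretch and none an AP-1 or CRE match. EEF1A1, E2F4 and POM121 are among the 20 and hold none of the 3.

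**Figure D5:**
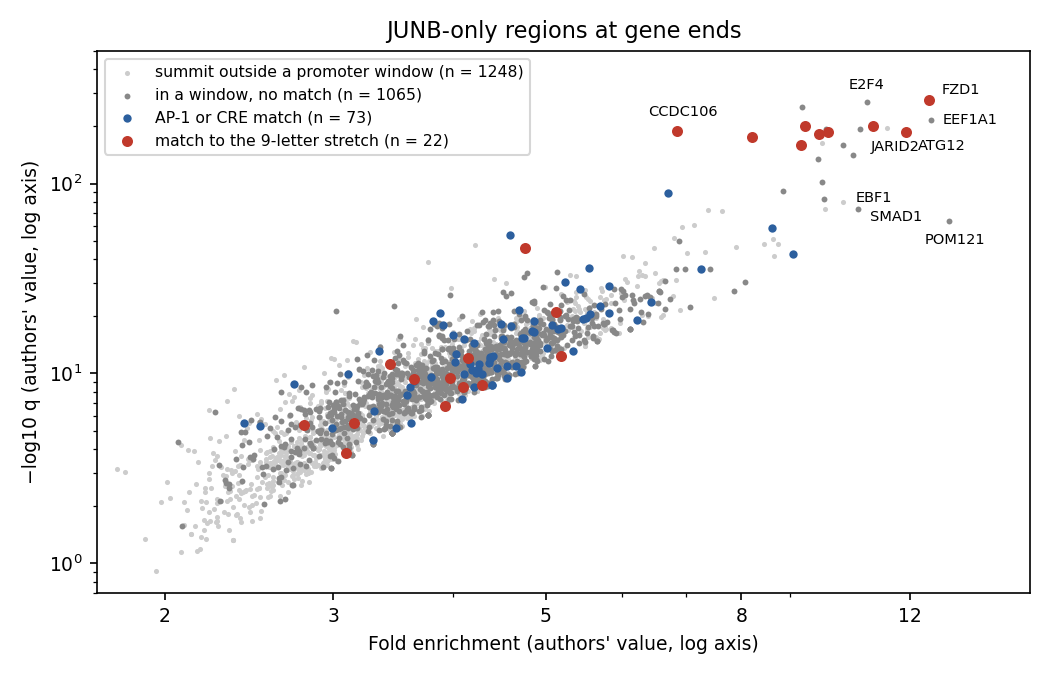
Fold enrichment (horizontal, log axis) and −log10 q (vertical, log axis) of the 2408 JUNB-only regions at gene ends, coloured by what the promoter window under the summit holds: the stretch GACGNTCCC (22 regions), an AP-1 or CRE match (73), neither (1065), or no window at the summit (1248). A −log10 q of at least 60 is reached by 30 regions and one of at least 100 by 20, and 9 of these 20 hold the stretch.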

How the data were processed

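Per the labels, JUNB and FOSL2 chromatin immunoprecipitation libraries were made from HaCaT cells, 3 for each of the 2 factors. Bowtie2, SAMtools 1.8, Picard 1.89, MACS2, deepTools and hg38 are named in the submitters' processing notes; their order, the control and how libraries were combined were not stated there. The authors deposited 1 narrow peak list per factor, each labelled as a conservative overlap list. The rule behind that label was not given, so absence from the FOSL2 list may also reflect it. Of its columns the fold enrichment (a linear ratio), the −log10 q and the summit offset of each region were used as deposited. Coordinates count from 1.

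Regions were shared when at least 1 bp overlapped. Gene ends came from the RefSeq table of GRCh38.p14. Its promoter table gave strand and sequence, and strand was lacking for 4025 of 19126 genes. Motifs were exact matches on both strands. Computation used Python 3.11.15, pandas 2.3.3, NumPy 2.4.6 and SciPy 1.17.1, and overlap, distance, pair and motif code was checked on simulated data. No hypothesis test was run. Regions and gene lists were chosen with earlier results of these data known. Named genes were the 20 strongest regions, the 3 strongest in each list, the 6 strongest divergent pairs, the extremes of width, distance and count of regions, and AP-1 genes; BMF, ICMT, regions with the 9-letter stretch, POM121C and those nearest to FOSL2 were added after their values were seen, as were the stretch itself and the 6-letter motif. Not every gene that qualifies is reported here. Alternatives changed the overlap, significance, width, distance, gene set and chromosomes.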

Additional observations from a re-analysis of the deposited data

How the results depend on the processing

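Each factor stood as 1 list, so leaving out a library was not possible. No paired analysis was possible because the replicate numbers of the libraries carry no values of their own in these lists. The number of JUNB-only regions at gene ends was 2408, and with −log10 q of at least 10 it was 1087 and with a width of at least 400 bp 1497; genes reached were 1281 and 1745 in place of 2636. The share of JUNB-only regions at gene ends, 28.3%, was 19.7% when sharing needed an overlap of 50% of both regions, 38.8% at −log10 q of at least 10, 43.0% at 400 bp width, 22.5% within 500 bp, 34.7% within 2500 bp and 35.2% for ends of all annotated genes. Median fold enrichment, 3.77, was 3.84 without a FOSL2 region within 1000 bp, 4.56 at the stricter q, 4.16 at 400 bp width, 3.89 within 500 bp and 3.68 within 2500 bp. Median width, 511 bp, was 491.5, 532, 734, 705, 550.5, 467 and 471 bp with 50% overlap, no FOSL2 region within 1000 bp, the stricter q, 400 bp width, 500 bp, 2500 bp and all genes. Median distance, 147 bp, was 110 bp at the stricter q, 120 bp at 400 bp width, 104 bp within 500 bp and 224 bp within 2500 bp. The share at starts, 92.4%, was 90.2% with 50% overlap, 96.2% at the stricter q, 96.8% at 400 bp width, 94.7% within 500 bp and 88.2% within 2500 bp. The share at divergent pairs, 9.29%, was 11.4% at the stricter q. In promoters holding the summit, CpG-rich sequence stood at 86.9%, CRE at 3.96%, the GC box at 77.4% and ETS at 27.6%; at the stricter q, median GC was 65.2%, CRE 4.18% and ETS 28.4%. The AP-1 share, 2.21%, was 2.45% and 2.69% under the same settings. Of 30 gene lists 27, 29 and 28 stayed on their side of all genes at the stricter q, within 500 bp and within 2500 bp, where all genes stood at 6.70%, 11.1% and 17.3%. The q setting was applied to both lists, so it also changed which regions count as JUNB-only: 1035 of the 2408 reach it, against the 1087 found. Adding X moved none of the 8 results it was run on, number, share, fold enrichment, width, distance, starts, pairs and genes reached, beyond the counting interval or 1.5 times the count; lists and promoter features were not run with X.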
